A study of Mus musculus with 4 samples.

Results

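The genes examined were the 10 genes of the MHC class I antigen presentation pathway and the immunoproteasome, H2-K1, H2-D1, B2m, Tap1, Tap2, Tapbp, Psmb8, Psmb9, Psmb10 and Nlrc5, taken by symbol from the 48587 genes of the mRNA-seq count table. All 10 were found and all 10 passed the filter on low counts that left 18916 genes for testing. The measurements came from mouse primary vascular smooth muscle cells (VSMCs), grown out of explants of the descending aorta of adult C57BL/6J mice after the adventitia had been stripped and the endothelium scraped away. The cells carried either shCTR, a lentiviral nontargeting hairpin directed against a plant microRNA sequence, or shMettl14, a lentiviral hairpin against Mettl14, which encodes a subunit of the complex that writes N6-methyladenosine (m6A) on mRNA. Each hairpin had 2 libraries, lettered A and B, and the members were compared between hairpins within each letter. The sources do not say whether a letter marks a shared culture, so the p-values below measure only the spread between these libraries, which may be technical.

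MHC class I molecules carry peptides from inside the cell to its surface, where CD8 T cells read them. A class I molecule is a polymorphic heavy chain (H2-K or H2-D in mice) paired with beta-2 microglobulin, loaded in the endoplasmic reticulum with peptides that the proteasome cuts and that the TAP transporter brings in. Interferons induce the catalytic immunosubunits of the proteasome and most other genes of the route, and NLRC5 is the transactivator that acts at class I promoters through a conserved module of S, X and Y boxes. Vascular smooth muscle is not a professional antigen-presenting cell, and its class I levels are known to respond to inflammatory cytokines.

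Of the 10 genes, 7 lie on chromosome 17, within the mouse MHC region. Promoter windows from RefSeq (build GRCm38.p6, 250 bases before to 50 bases after the start site) were matched for 8 of the 10. The 230 bases upstream of the start site are shown for H2-K1, H2-D1 and B2m, which carry the same pair of motifs at the same spacing, and for Tap1, whose promoter is also that of Psmb9. Capitals mark matches on either strand to GGGNNTTCC (an NF-kB-like motif), GAAANNGAAA (an interferon response motif), TTCNNNGAA (a gamma activation site motif), TGACG (the core of the X2 box) and CCAAT or its complement ATTGG (the Y box). No match overlapped another.
H2-K1, chr17:34000348-34000577, minus strand: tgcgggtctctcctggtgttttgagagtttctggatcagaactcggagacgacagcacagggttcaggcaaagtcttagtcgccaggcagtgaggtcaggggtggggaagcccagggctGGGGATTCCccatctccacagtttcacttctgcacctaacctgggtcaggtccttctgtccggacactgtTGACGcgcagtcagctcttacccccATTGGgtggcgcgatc
H2-D1, chr17:35262864-35263093, plus strand: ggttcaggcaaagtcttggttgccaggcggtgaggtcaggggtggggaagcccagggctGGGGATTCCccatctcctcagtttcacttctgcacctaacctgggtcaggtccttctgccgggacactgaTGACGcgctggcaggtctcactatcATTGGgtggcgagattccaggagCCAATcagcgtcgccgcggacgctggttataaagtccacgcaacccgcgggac
B2m, chr2:122147457-122147686, plus strand: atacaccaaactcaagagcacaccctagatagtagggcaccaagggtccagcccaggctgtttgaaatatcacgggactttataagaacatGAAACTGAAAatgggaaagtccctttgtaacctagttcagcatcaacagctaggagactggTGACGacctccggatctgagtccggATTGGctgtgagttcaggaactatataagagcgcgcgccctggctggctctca
Tap1, chr17:34187326-34187555, plus strand: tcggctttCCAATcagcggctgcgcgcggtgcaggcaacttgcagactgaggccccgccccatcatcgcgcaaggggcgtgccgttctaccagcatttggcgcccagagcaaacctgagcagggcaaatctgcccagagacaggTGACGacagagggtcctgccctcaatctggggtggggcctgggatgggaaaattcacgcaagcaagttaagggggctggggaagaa

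In H2-K1, H2-D1 and B2m the TGACG was followed by ATTGG, the start of one lying 25 bases after the start of the other. This spacing was noticed in these sequences and then counted, and it occurred in 31 of 32851 RefSeq promoter windows of the same length, or 0.0944%. TGACG alone was in 20.8% of all windows and in 5 of the 8 members' windows, and CCAAT was in 37.4% of all windows and in 6 of the 8. In these member counts the Tap1 and Psmb9 matches are the same sites, read on opposite strands and counted for each gene. Both heavy-chain promoters held GGGGATTCC, a match to GGGNNTTCC, which 5.82% of all windows held. The H2-K1 and H2-D1 windows also shared an identical run of 47 bases around it. The interferon response motif was in the B2m window, at base -139 with the start site as base 0, and in 3.44% of all windows. The gamma activation site motif was in the window of Psmb8, and in 8.30% of all windows. Only exact matches to the letters of each motif were sought, so sites spelled otherwise are not marked, in the heavy-chain promoters or elsewhere. Tap1 and Psmb9 are transcribed away from each other from start sites 226 bases apart, so that their windows share 275 bases and the Tap1 sequence above is also, on the other strand, the promoter of Psmb9. These matches are descriptions of the letters and not measurements of binding.

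The libraries held between 114343653 and 124815868 counts each. Mettl14 itself stood at 18.0 and 19.9 CPM (counts-per-million, scaled to the effective library size) in shCTR A and B and at 4.60 and 4.37 CPM in shMettl14 A and B. The knockdown libraries thus kept 25.5% of the control level within A and 21.9% within B, and the log2 fold change was -2.08 ± 0.25 (SE). Even this difference was not called by edgeR's quasi-likelihood test after adjustment over all genes (adjusted p = 1.0), while DESeq2 called it (adjusted p = 3.05e-07). A member that the quasi-likelihood test did not call may thus still differ. The same letter resembled itself across hairpins more closely than the same hairpin did across letters, with Pearson r of log2 CPM over genes of 0.985 for A and 0.977 for B against 0.953 within shCTR and 0.969 within shMettl14.

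The cells were checked against marker genes of their labelled type. All 7 smooth muscle markers were detected in every library. Their summed level was 6797 and 5770 CPM in shCTR A and B and 4442 and 4809 CPM in shMettl14 A and B, all 7 had a fitted log2 fold change below 0 (6 with upper-quartile factors, and 5 to 6 when a library was left out), with a median of -0.31, and none was called. Acta2, smooth muscle actin, stood at 3547 and 2799 CPM in shCTR and at 2171 and 2073 CPM in shMettl14 (-0.58 ± 0.21, SE), with an unadjusted p under 0.05. Tagln, transgelin, had -0.31. The part of these differences in the proteasome and interferon values below was not tested. All 7 endothelial markers were detected too, at a summed 1653 to 3931 CPM, although the endothelium had been scraped. The most abundant were Emcn (484 to 2099.5 CPM) and Cdh5 (508 to 818 CPM). Pecam1, a defining endothelial junction gene, stood at 477 and 820 CPM in shCTR A and B and at 485 and 545 CPM in shMettl14 A and B. The rest of the list, named after its values were seen, was lower. Erg stood at 87.3 to 154 CPM, Vwf at 16.4 to 18.9 CPM, Tek at 5.04 to 10.9 CPM and Kdr at 5.06 to 9.75 CPM. The 11 leukocyte markers summed to 11.9 to 16.0 CPM. The macrophage-associated Lyz2 (493 to 640 counts) and Cd68 (420 to 521 counts) were present in every library, and Ptprc, the pan-leukocyte gene CD45, stood at 0.241 to 0.819 CPM. The rest of this list was named after its values were seen. Csf1r (194 to 467 counts), Laptm5 (14 to 186 counts) and Cd79a (12 to 74 counts) were also present in every library. Fcer1g (0 to 18 counts), Itgam (0 to 14 counts) and Adgre1 (0 to 4 counts) were not. Tyrobp and Cd3e had 0 counts in 3 of the 4 libraries. The 6 adventitial fibroblast markers summed to 322 to 412 CPM, mostly Ly6a, at 195 to 282 CPM, and Dcn, at 68.3 to 160 CPM. The others, named after their values were seen, were much lower. Pdgfra stood at 7.93 to 14.5 CPM, Pi16 at 0.472 to 0.968 CPM and Dpt at 0.146 to 0.488 CPM. Lum reached at most 0.377 CPM and had 0 counts in shCTR B. The 7 class II and antigen-presenting cell genes, of which H2-DMb1 and H2-DMa were the most abundant, summed to 24.1 and 6.30 CPM in shCTR A and B and to 18.4 and 8.41 CPM in shMettl14 A and B. The endothelial sum was higher in B than in A with both hairpins and the class II sum was lower, and the part of either in the values below was not tested. In bulk libraries such as these, fewer cells of a type and less RNA per cell cannot be told apart.

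No member changed by the test across all genes. Of the 10 genes, 0 passed an adjusted p of 0.05, where 0% of all 18916 genes did, and 0 had an unadjusted p under 0.05, where 1.67% of all genes did (315 genes, 124 higher and 191 lower). DESeq2 called 0 members as well, and 5 genes in all. In edgeR's fit the adjusted p = 1.0 for each of the 10, so that single members are given below with their fold change and its SE. That fit has no term for the letter, so each SE includes the difference between A and B. Of the members, B2m had the smallest unadjusted p. Within the letters, 4 members were lower with shMettl14 in both A and B (H2-K1, B2m, Psmb9 and Psmb10), a pattern seen in 27.6% of all genes. Tap1 and Nlrc5 were higher in both letters, as were 30.0% of all genes, and the other 4 had opposite signs in A and B. The fitted log2 fold change was below 0 for 6 of 10 members, and for 48.8% of all genes. The median over the members was -0.08, against 0.01 over all genes. That median was -0.16 within A and 0.10 within B.

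**Figure D1:**
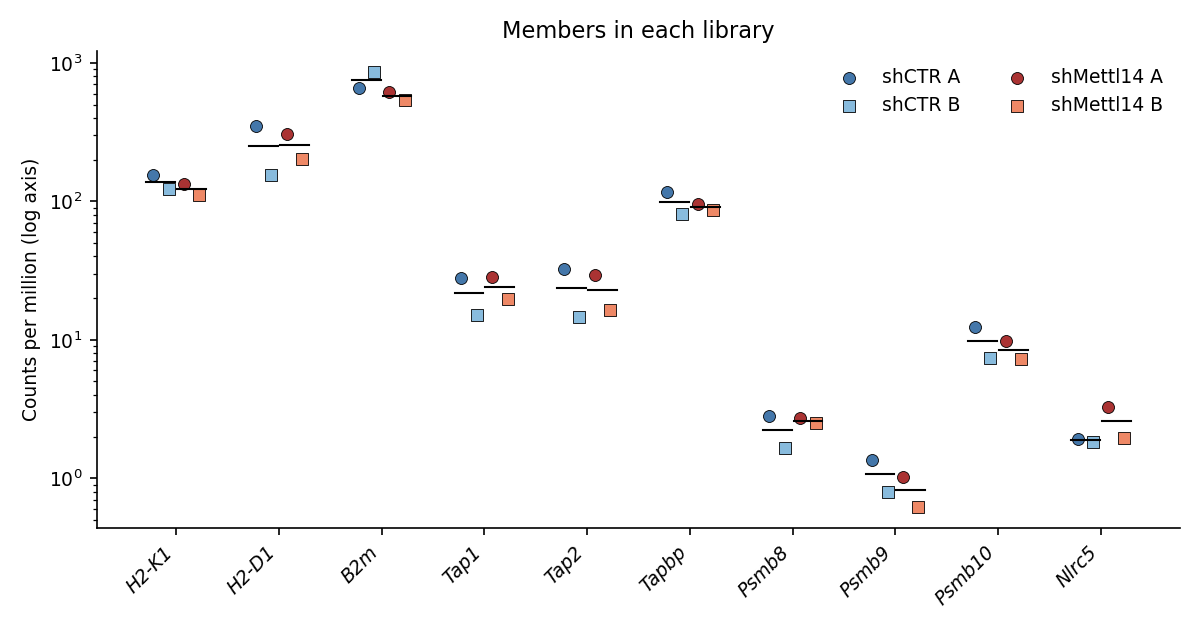
Level of each member in CPM (vertical log axis) in the 4 libraries, with circles for A and squares for B, blue for shCTR and red for shMettl14, and short lines at the mean of each hairpin's 2 libraries. B2m and Nlrc5 are the members whose shCTR and shMettl14 libraries do not overlap, and in most genes the squares lie below the circles with either hairpin.

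The heavy chains differed less between the hairpins than between the letters. H2-K1, a classical class I heavy chain, stood at 154 and 123 CPM in shCTR A and B and at 133 and 111 CPM in shMettl14 A and B. It was lower with shMettl14 in both letters, by a log2 ratio of -0.21 in A and -0.15 in B, but the shCTR and shMettl14 libraries overlapped and the fitted log2 fold change of -0.18 ± 0.22 (SE) did not exceed its SE. H2-D1, the other classical heavy chain of this strain, stood at 348 and 155 CPM in shCTR and at 309 and 204 CPM in shMettl14. Its ratio was -0.17 in A and 0.40 in B. Those opposite signs left a fitted value of 0.03 ± 0.45 (SE). Exact binomial 95% intervals on the counts, which cover counting error only, ran from -0.19 to -0.15 in A and from 0.37 to 0.43 in B, so that the letters differed by more than counting error allows.

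B2m, the invariant light chain that every class I molecule needs, was the most abundant member and the one with the smallest p. It stood at 660 and 854 CPM in shCTR A and B and at 620 and 538 CPM in shMettl14 A and B. Both shMettl14 libraries thus lay below both shCTR libraries, which was so for 13.3% of all genes. The log2 ratio was -0.09 in A (counting interval -0.11 to -0.08) and -0.67 in B (-0.68 to -0.65). The fitted log2 fold change was -0.39 ± 0.22 (SE), and it was not called.

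The balance of heavy chain to light chain was read from levels per kilobase of annotated exon, a comparison chosen after the values of the separate genes were seen. H2-K1 and H2-D1 together came to 24.4% of B2m in shCTR A, 10.2% in shCTR B, 22.9% in shMettl14 A and 18.7% in shMettl14 B. The ratio was lowest in the shCTR B library, where B2m was highest and H2-D1 lowest. The exon lengths used were 860 bases for B2m, 2579 for H2-D1 and 2938 for H2-K1. They count the exons of all isoforms, which can lower the value of a gene with many, so the percentages depend on them. H2-D1 was 2.26 times H2-K1 in counts in shCTR A and 1.26 times in shCTR B, and 2.32 and 1.84 times in shMettl14 A and B. The heavy chains share sequence with each other and with other class I genes. Of all runs of 50 bases in the annotated transcripts, 9.63% of those of H2-K1 and 12.8% of those of H2-D1 occurred in another gene, and 0.957% and 3.59% of runs of 100 bases did, and how the counting treated reads from such stretches is not given in the sources used here. B2m shared none.

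The TAP transporter subunits differed more between the letters than between the hairpins. Tap1, which with Tap2 forms the peptide transporter of the endoplasmic reticulum, stood at 28.0 and 15.2 CPM in shCTR A and B and at 28.2 and 19.6 CPM in shMettl14 A and B. The A libraries differed by a log2 ratio of 0.01, an interval of -0.06 to 0.08, while the B libraries differed by 0.37 (0.28 to 0.46). Tap2 stood at 32.4 and 14.7 CPM in shCTR and at 29.4 and 16.5 CPM in shMettl14, with ratios of -0.14 in A and 0.17 in B. The hairpins overlapped for both genes. The fitted log2 fold changes were 0.15 ± 0.38 (SE) for Tap1 and -0.04 ± 0.49 (SE) for Tap2, each well within its SE. Tap2 shares 18.5% of its exon bases with genes annotated on the other strand, and the setting for strand used in counting is not given in the sources used here.

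Tapbp encodes tapasin, which bridges TAP and the class I heavy chain and edits the peptide. It stood at 117 and 81.1 CPM in shCTR A and B and at 95.9 and 87.3 CPM in shMettl14 A and B, with ratios of -0.29 in A and 0.11 in B. The shMettl14 libraries lay between the shCTR libraries. The fitted log2 fold change was -0.11 ± 0.25 (SE). Its exons overlap another gene on the other strand over 24.9% of their length. Among the 8 partners that trim peptides or help load them, 0 had an unadjusted p under 0.05, with 3 higher, 5 lower and a median log2 fold change of -0.09. The most abundant of these were Calr, the chaperone calreticulin, at 1379 and 1277 CPM in shCTR against 1045 and 1037 CPM in shMettl14, and Pdia3, the disulfide isomerase of the loading complex. Calr was lower in both letters (-0.40 and -0.30) and so was Pdia3 (-0.39 and -0.28), and neither was called.

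**Figure D2:**
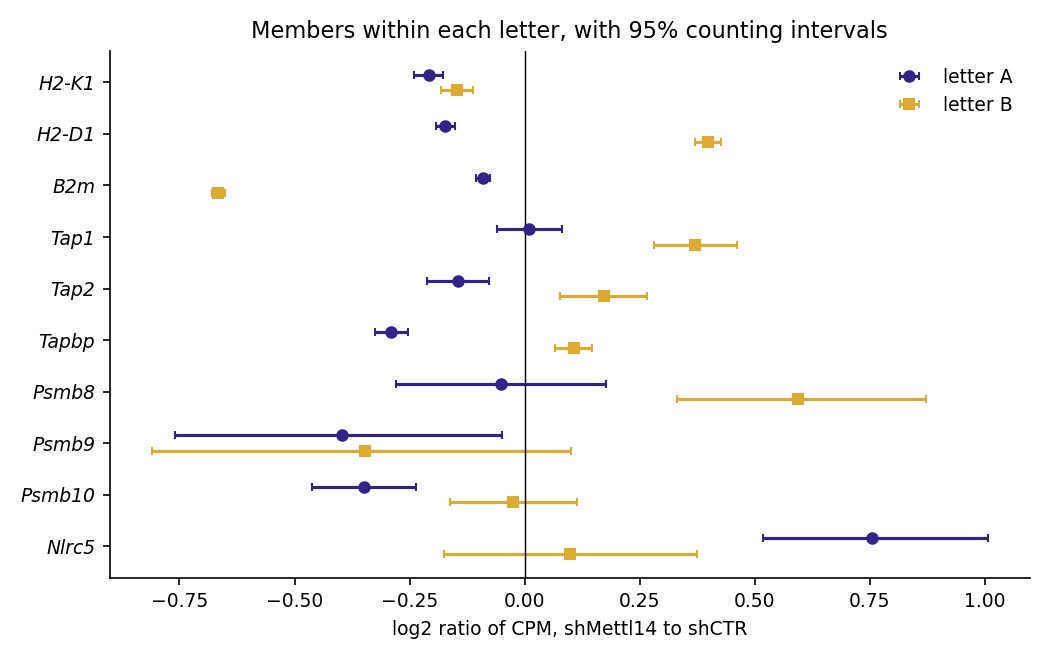
Log2 ratio of CPM, shMettl14 to shCTR, for each member within letter A (circles) and letter B (squares), with exact 95% intervals that cover counting error only. Of the 20 intervals 15 leave out 0, and the share over all genes was not counted, so this count has no comparison. H2-D1, Tap2, Tapbp and Psmb8 lie on opposite sides of 0 in A and B.

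The immunosubunits replace the standard catalytic subunits of the 20S proteasome and shift the peptides it cuts towards those that fit class I grooves. Psmb8 and Psmb9 were scarce in these cells and Psmb10 less so. Psmb8 (LMP7, which takes the place of Psmb5) stood at 2.81 and 1.64 CPM in shCTR A and B and at 2.71 and 2.48 CPM in shMettl14 A and B. These levels rest on 177 to 323 counts, and the ratio was -0.05 in A and 0.59 in B (counting intervals -0.28 to 0.18 and 0.33 to 0.87). Psmb9 (LMP2, the counterpart of Psmb6) stood at 1.35 and 0.796 CPM in shCTR and at 1.02 and 0.623 CPM in shMettl14, on 81 to 153 counts. It was lower in both letters, by -0.40 and -0.35, although the interval in B (-0.81 to 0.10) included 0 and the hairpins overlapped. Psmb10 (MECL-1, the counterpart of Psmb7) was the most abundant of these subunits, at 12.4 and 7.34 CPM in shCTR and 9.74 and 7.22 CPM in shMettl14, with ratios of -0.35 and -0.02. The fitted log2 fold changes were 0.22 ± 0.42 (SE) for Psmb8, -0.39 ± 0.51 (SE) for Psmb9 and -0.22 ± 0.37 (SE) for Psmb10. Psmb9 shares 5.79% of its exon bases with Tap1 on the other strand, and Psmb8 shares 14.7% with another gene.

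Each immunosubunit was then set against the standard subunit it replaces, within each library. Psmb8 came to 2.90% of the counts of Psmb5 in shCTR A and 8.45% in shCTR B, and to 3.51% and 10.1% in shMettl14 A and B. Psmb5 itself stood at 96.8 and 19.4 CPM in shCTR A and B and at 77.2 and 24.6 CPM in shMettl14 A and B. Psmb9 came to 1.26% and 1.02% of Psmb6 in shCTR and to 1.21% and 0.997% in shMettl14. Psmb10 came to 17.3% and 9.23% of Psmb7 in shCTR and to 16.4% and 12.6% in shMettl14. All these are percentages of counts, not scaled to exon length, and so are not ratios of transcripts. Annotated exons came to 3381 bases for Psmb8 and 899 for Psmb5, and to 3660 for Psmb9 and 1872 for Psmb6. For Psmb10 and Psmb7 they came to 1705 and 3421 bases. Differences of a ratio between libraries do not depend on these lengths. The log2 ratios differed between the hairpins (shMettl14 minus shCTR) by 0.26 for Psmb8 to Psmb5, -0.04 for Psmb9 to Psmb6 and 0.19 for Psmb10 to Psmb7, where the SD between the shCTR libraries was 1.09, 0.20 and 0.64. An exact two-sided permutation test gave p = 0.667, 0.667 and 1.0 (all 1.0 after adjustment over the 3 ratios), and with 2 libraries against 2 it cannot go below 0.333. The Psmb8 to Psmb5 ratio was higher with shMettl14 in both letters (by 0.28 and 0.25).

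The standard proteasome genes are shown beside the immunosubunits. All 14 standard 20S subunits had a fitted log2 fold change below 0, with a median of -0.27, and 11 of 14 were lower in both letters. When a library was left out the median ran from -0.42 (without shMettl14 A) to -0.18 (without shCTR A), with 11 to 14 of the 14 below 0. None was called by edgeR, and Psmb2 (-0.51 ± 0.19, SE) and Psmb3 (-0.61 ± 0.23, SE), beta subunits of the 20S ring, had an unadjusted p under 0.05. Psmb2 stood at 96.3 and 89.6 CPM in shCTR and at 68.2 and 62.1 CPM in shMettl14, and Psmb3 at 131 and 132 CPM against 98.9 and 73.4 CPM. The most abundant of the list, Psmb1 and Psma2, had values of -0.21 and -0.38. Psmb6 and Psmb7 were lower in both letters, while Psmb5 had a ratio of -0.33 in A and 0.34 in B. Among the 10 activator and assembly genes, 9 values were below 0 (8 with upper-quartile factors) with a median of -0.19, and 1 had an unadjusted p under 0.05. That was Psme1, the interferon-inducible PA28 alpha subunit, at 50.8 and 52.4 CPM in shCTR and 32.0 and 34.0 CPM in shMettl14 (-0.65 ± 0.19, SE). When a library was left out the median of these 10 ran from -0.32 (without shCTR B) to -0.08 (without shCTR A), with 6 to 9 below 0. Pomp, the chaperone of 20S assembly, had -0.22, and Psme4, the activator PA200, had 0.20. The summed smooth muscle markers, given above, were also lower in both shMettl14 libraries.

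**Figure D3:**
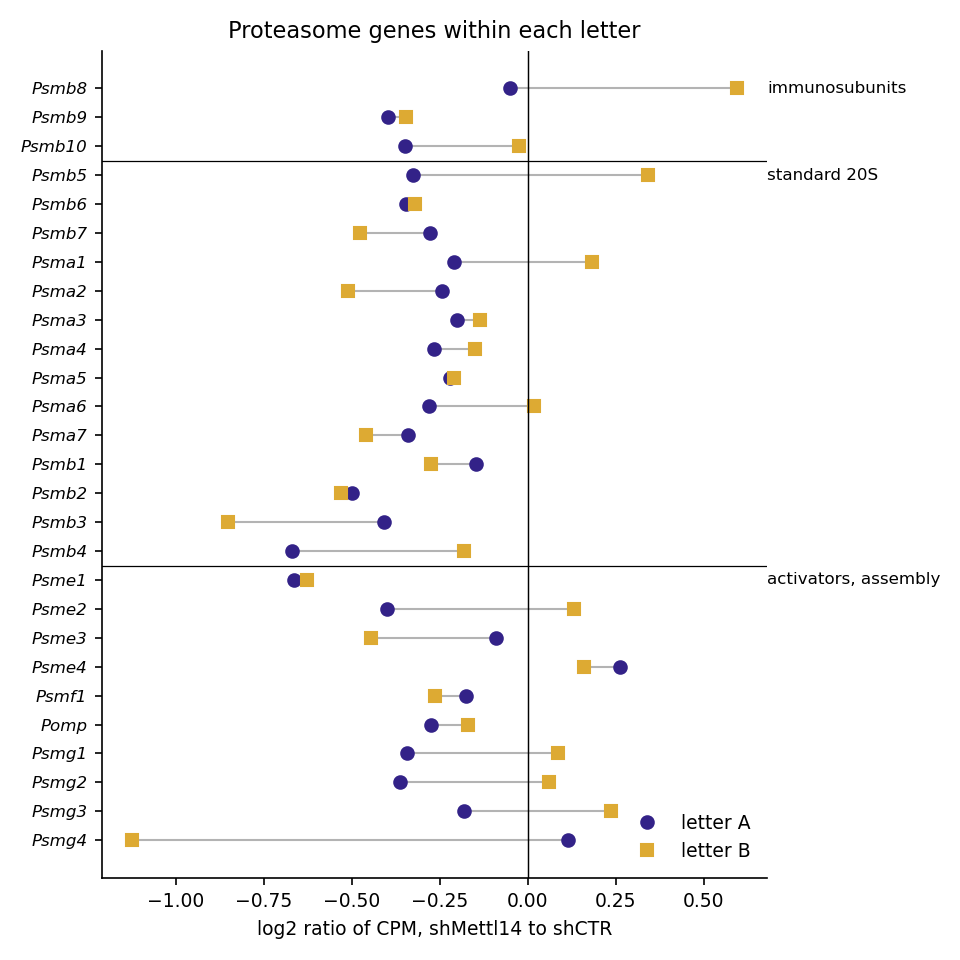
Log2 ratio of CPM, shMettl14 to shCTR, within letter A (circles) and letter B (squares) for the 3 immunosubunits (top), the 14 standard 20S subunits (middle) and the 10 activator and assembly genes (bottom). In A all 14 standard subunits lie left of 0 and in B 11 of them do, while Psmb8 lies at 0.59 in B.

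Nlrc5, the class I transactivator, was low in all libraries and higher in both letters with shMettl14. It stood at 1.93 and 1.82 CPM in shCTR A and B and at 3.27 and 1.95 CPM in shMettl14 A and B, on 197 to 388 counts. Both shMettl14 libraries lay above both shCTR libraries, as for 14.7% of all genes. The distance came from letter A, where the log2 ratio was 0.76 (counting interval 0.52 to 1.01), against 0.10 in B (-0.18 to 0.37). The fitted log2 fold change was 0.48 ± 0.42 (SE), the farthest from 0 among the members. Its sign was shared by H2-D1, Tap1 and Psmb8 and not by the 6 members with a value below 0.

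The other regulators of class I transcription had values on both sides of 0. Of 26 such genes, 12 were higher and 14 lower, 0 had an unadjusted p under 0.05 by edgeR, and the median log2 fold change was -0.03. Irf1, an interferon-induced activator of Tap1 and Psmb9, stood at 18.8 and 15.2 CPM in shCTR and at 18.6 and 15.7 CPM in shMettl14, with a fitted value of 0.01 ± 0.25 (SE). Rfx5, the X-box binding protein with which NLRC5 acts, stood at 14.1 and 15.7 CPM against 17.9 and 15.3 CPM (0.15 ± 0.23, SE). The most abundant genes of the list, the kinase Jak1 and the NF-kB subunit Rela, had values of 0.04 and -0.35.

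Interferon-stimulated genes outside the pathway were set beside the members. All 26 had a fitted log2 fold change below 0, with a median of -0.56, and 25 of them did with upper-quartile factors, where Bst2 was above 0. When a library was left out the median ran from -0.83 (without shMettl14 A) to -0.22 (without shMettl14 B), with 20 to 25 of the 26 below 0. None was called, 0 had an unadjusted p under 0.05 by edgeR and 2 had one by DESeq2, and 19 of 26 were lower in both letters. Bst2, the antiviral membrane protein tetherin, stood at 314 and 176 CPM in shCTR and 267 and 222 CPM in shMettl14, the same order of libraries as H2-D1. Irgm1, an interferon-inducible GTPase, had -0.24. The median of these 26 genes was -0.28 within A and -0.64 within B, where those of the members were -0.16 and 0.10.

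The other class I and class I-like genes, a list that includes genes outside the MHC and pseudogenes, gave a mixed picture. Of 26 listed, 23 were in the table and 16 were tested, of which 8 were higher and 8 lower, with a median of -0.0037 and 0 at an unadjusted p under 0.05. Fcgrt, the neonatal Fc receptor, stood at 82.2 and 37.7 CPM in shCTR A and B and at 54.7 and 41.6 CPM in shMettl14 A and B. H2-T22, a ligand of some gamma delta T cells, stood at 57.3 and 32.7 CPM against 45.6 and 33.2 CPM. Both were higher in A than in B with either hairpin, and their fitted values were -0.32 ± 0.42 (SE) and -0.19 ± 0.35 (SE). H2-Q2 and Mill1 had 0 counts in every library, which allows up to 0.0231 to 0.0278 CPM at these depths.

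**Figure D4:**
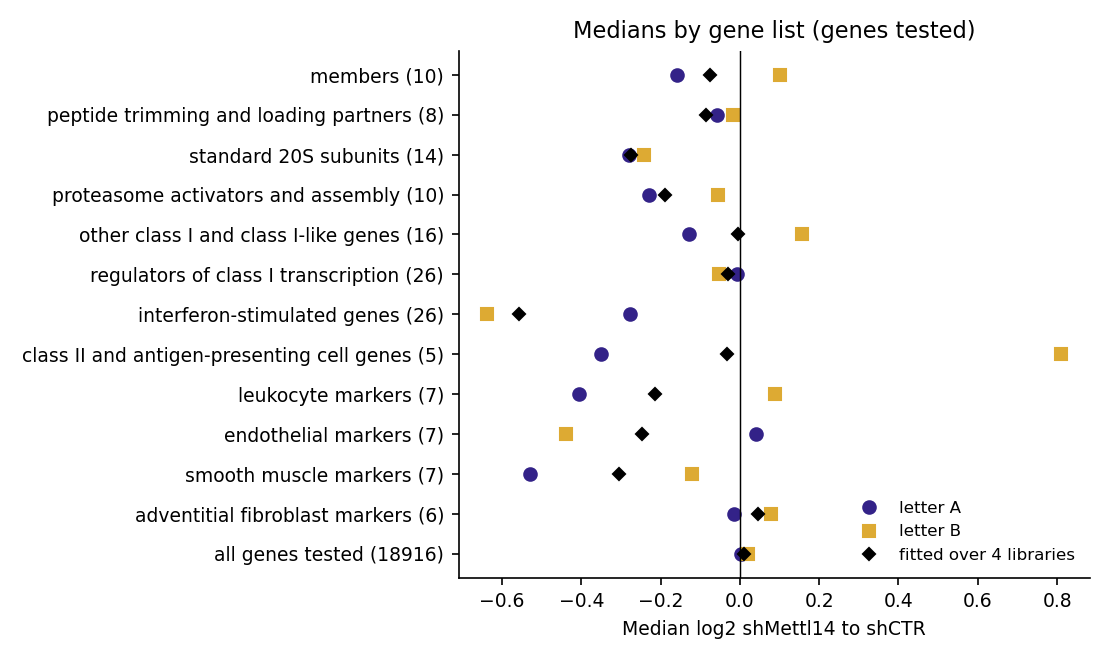
Median log2 shMettl14 to shCTR of each gene list within letter A (circles), within letter B (squares) and as fitted over the 4 libraries (diamonds), with the number of genes tested in parentheses. The members' medians lie at -0.16, 0.10 and -0.08, those of the standard 20S subunits between -0.28 and -0.24, and those of all genes near 0.

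The letter separated the members more than the hairpin did. In shCTR 9 of 10 members were lower in B than in A, and in shMettl14 all 10 were. Lower values in B with both hairpins occurred in 9 of 10 members and in 36.6% of all genes. The median difference, log2 CPM in B minus A, was -0.75 in shCTR and -0.48 in shMettl14 for the members, against -0.013 and -0.0049 for all genes. The differences ran from -1.17 for H2-D1 and -1.14 for Tap2 to -0.08 for Nlrc5 in shCTR, with B2m on the other side at 0.37. In shMettl14 they ran from -0.83 for Tap2 and -0.74 for Nlrc5 to -0.13 for Psmb8 and Tapbp. The distance between A and B was smaller with shMettl14 for 9 of 10 members, Nlrc5 being the exception, and for 65.2% of all genes. The difference between A and B within shCTR exceeded the fitted difference between hairpins, in absolute log2 units, for 8 of 10 members. The first rests on single libraries and the second on 2 libraries a hairpin. The share of all genes with this pattern was not counted, so this count has no comparison. What the letters stand for is not stated, and the members share their libraries and partly their regulators, so these counts describe the 4 libraries. The summed endothelial markers, higher in B, and the summed class II genes, lower in B, moved with the letter as given above. Of the 7 smooth muscle markers, 4 were lower in B with both hairpins. Myh11, among those lower, and Myocd, which went the other way, were named after their values were seen. Myh11 stood at 338 and 101 CPM in shCTR A and B and at 233 and 75.0 CPM in shMettl14. Myocd stood at 0.546 and 7.10 CPM in shCTR A and B and at 0.918 and 6.60 CPM in shMettl14. Their part in the members' values was not tested. Of the 5 class II genes tested, 4 were lower in B with both hairpins. Cd74, named after its values were seen, had 1 count in shMettl14 A and 27 in shMettl14 B.

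**Figure D5:**
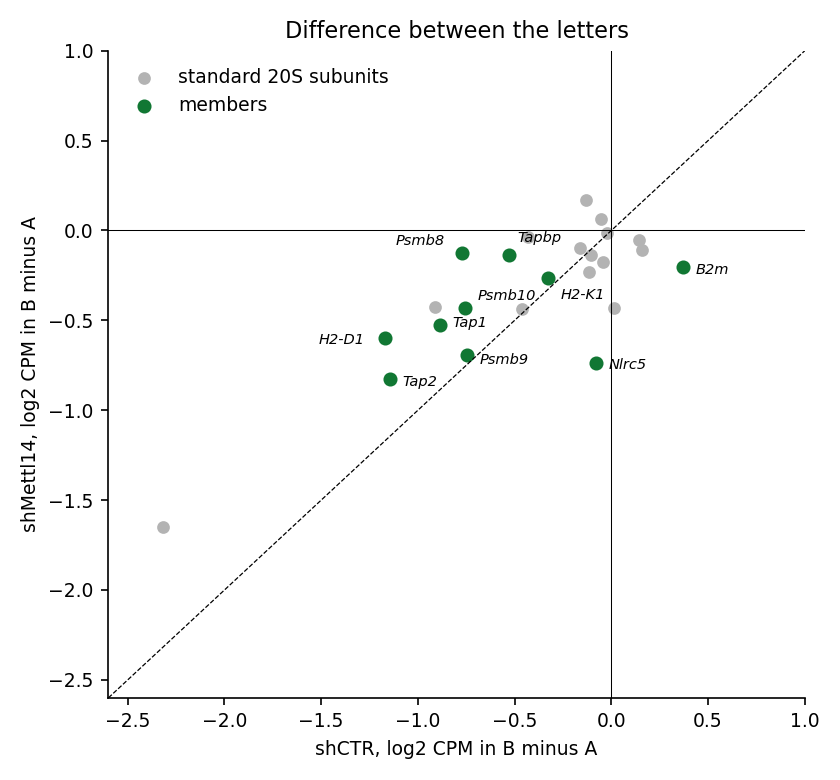
Log2 CPM in B minus A with shMettl14 (vertical) against the same with shCTR (horizontal) for the 10 members (green) and the 14 standard 20S subunits (grey), with the line of equality dashed. All members except B2m lie left of 0, the median being -0.75 in shCTR, and the grey point at the far left is Psmb5.

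In order of level per kilobase of annotated exon, on the mean of the shCTR libraries, B2m came first at 880 ± 159 CPM per kb (SD, n = 2), followed by H2-D1 at 97.4 ± 52.9, H2-K1 at 47.0 ± 7.5 and Tapbp at 27.3 ± 7.0. Tap2 (6.23 ± 3.32), Psmb10 (5.79 ± 2.10) and Tap1 (3.95 ± 1.66) overlapped in their ranges. Psmb8 (0.658 ± 0.245), Psmb9 (0.293 ± 0.106) and Nlrc5 (0.221 ± 0.009) came last, and the last pair was not separated by the libraries. With shMettl14 the order of the first 8 was the same, and Nlrc5 (0.307 ± 0.109) stood above Psmb9 (0.224 ± 0.077) with overlapping libraries. Lengths were those of all annotated exons of a gene, which can exceed that of any single transcript and lower the value of genes with many isoforms.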

How the data were processed

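Poly-A RNA of 4 VSMC libraries (shCTR A and B, shMettl14 A and B) was sequenced by the authors from stranded paired-end libraries. The deposited values are raw counts of reads per gene, and the submitters' processing notes name STAR, featureCounts and mm10, while the strand and multi-mapping settings are not given in the sources used here. Genes passing edgeR's filterByExpr (18916 of 48587) were scaled by TMM and tested with edgeR (version 4.0.16) by the robust quasi-likelihood test without a block, with Benjamini-Hochberg adjustment over all genes tested and calls at 0.05. Log2 CPM used a prior count of 2. Within-letter ratios were differences of log2 CPM. Counting intervals were exact binomial 95% intervals and, like the floor of 3 counts for a count of 0, cover counting error only. At these depths 3 counts equal 0.0231 to 0.0278 CPM. Ratios of subunits were compared by exact permutation of libraries. Exon lengths, overlaps and shared transcript runs came from GENCODE M21, and promoter windows from RefSeq (GRCm38.p6). Alternatives were DESeq2 (version 1.42.0), RLE and upper-quartile factors, other filters, a replicate block and leaving out each library. Named genes were Mettl14, the members, Psmb5, Psmb6, Psmb7, Irf1, Rfx5 and, of each other list, the genes with an unadjusted p under 0.05 (or an adjusted p under 0.05 in an alternative), the 2 most abundant, and for the marker lists Ptprc and Pecam1. A gene that this rule also names is not reported here. Any other gene was named after its values were seen. The members and lists were chosen with earlier results of these data known.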

Additional observations from a re-analysis of the deposited data

How the results depend on the processing

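The number of members called was 0 under DESeq2, the other size factors and filters, the replicate block and each fit that left out a library, and so was the number with an unadjusted p under 0.05. Over all genes 5 were called by DESeq2, 9 with the replicate block and 0 to 1 when a library was left out, where the 1 came without shCTR B. The sources do not say what same-letter libraries share, and with 2 pairs the correlation of their deviations from the group means, 0.578, does not settle it. With the replicate block 1941 of 18916 genes had an unadjusted p under 0.05, 892 higher and 1049 lower. Among them 12 of the 26 interferon-stimulated genes and 6 of the 14 standard 20S subunits were lower. So were 5 of the 26 regulators and 3 of the 7 smooth muscle markers. The activator and assembly genes, leukocyte markers and endothelial markers each had 1 such gene, also lower. Of the 8 loading partners 1 was higher and 1 lower. None of these list genes was called. Of 100 fits of single members under the alternatives 11 changed sign, and leaving out a library changed that of 7 of the 10 members. The lowest adjusted p of a member in any of these fits was 0.51, with the replicate block. H2-K1, B2m and Nlrc5 kept their sign in these fits but not their size (below). With the replicate block Tap2 turned to 0.0126, Psmb5 to 0.0048, Bst2 to 0.0531, H2-DMb1 to 0.11, H2-DMa to 0.0227 and Ptprc to 0.0513 on the log2 scale, and Mettl14 was called. Bst2 also turned to 0.0218 with upper-quartile factors, 0.0072 with no filter and 0.0113 with at least 10 counts in every library. The cause was not tested.

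Leaving out each library moved the members' median log2 fold change from -0.35 (without shCTR B) to 0.37 (without shCTR A). The difference in log2 ratio ranged from -0.51 to 1.04 for Psmb8 to Psmb5, from -0.18 to 0.10 for Psmb9 to Psmb6 and from -0.26 to 0.64 for Psmb10 to Psmb7. The log2 fold change ranged from -0.44 to 0.73 for H2-D1, -0.23 to 0.66 for Tap1, -0.51 to 0.65 for Tap2, -0.36 to 0.18 for Tapbp, -0.12 to 0.67 for Psmb8, -0.78 to 0.0476 for Psmb9, -0.55 to 0.21 for Psmb10, -0.34 to -0.0032 for H2-K1, -0.56 to -0.19 for B2m and 0.0593 to 0.80 for Nlrc5. For genes outside the pathway it ranged from -1.24 to 1.40 for Psmb5, -0.14 to 0.18 for Irf1, -0.78 to 0.36 for Fcgrt, -0.54 to 0.28 for H2-T22, -0.11 to 0.21 for Jak1, -0.36 to 0.48 for Bst2, -0.78 to 1.18 for H2-DMb1, -0.66 to 0.79 for H2-DMa, -1.50 to 0.26 for Emcn, -0.46 to 0.22 for Cdh5, -0.73 to 0.49 for Dcn, -0.80 to 0.97 for Ptprc and -0.67 to 0.11 for Pecam1. Each of these fits leaves a hairpin with 1 library, assumed to vary like the other pair. With 2 libraries a hairpin the limit is the spread between libraries, and depth limits chiefly Psmb8, Psmb9 and Nlrc5, whose counting intervals were the widest.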
